A study of Mus musculus with 13 samples.

Results

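The genes described here are *Hmgcs1*, *Idi1*, *Fdps*, *Sqle*, *Lss* and *Cyp51*, which encode 6 enzymes of cholesterol synthesis, *Insig1*, which encodes a sterol sensor of the same pathway, and *Srebf2*, which encodes the transcription factor SREBP2. They were chosen as a list of SREBP2 target genes together with the gene of the factor itself. All 8 were found among the 34419 genes of the count table, and all 8 passed the filter on low counts. No gene of lipoprotein uptake is among the 8.

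Gluteal white adipose tissue (WAT), a posterior subcutaneous fat depot, was taken from male C57BL/6J mice that were kept at 22°C (7 mice) or 29°C (6 mice) for their first 13 weeks of life. A temperature of 22°C is a usual room temperature that is cool for a mouse, and 29°C is near thermoneutrality. Both groups had lost their posterior fur by depilation once weaned and had neither cage mates nor nests, so neither was insulated in the usual way. The labels name no transgene or mutation. RNA of each mouse was sequenced as 1 library from whole tissue, in which fewer cells of a type and less RNA per cell cannot be told apart.

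SREBP2 is made as a membrane protein of the endoplasmic reticulum, where the escort protein SCAP carries it and the INSIG proteins hold both back while sterols are plentiful. When membrane sterol falls, SCAP takes SREBP2 to the Golgi, 2 proteases release its DNA-binding part, and this part activates genes of cholesterol synthesis together with *Insig1*, which then restrains the pathway again. White adipose tissue holds a large store of unesterified cholesterol in the membranes of its fat cells and on the surface of their lipid droplets.

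The region upstream of these genes is shown because SREBP2 acts on it together with the factors NF-Y and SP1. RefSeq promoter sequences on GRCm38.p6 were at hand for 6 of the 8 genes (*Hmgcs1*, *Idi1*, *Lss*, *Cyp51*, *Insig1* and *Srebf2*), and the 250 bases before each annotated start were searched on both strands. Those of 4 genes are printed 5′ to 3′ on the plus strand, which is the coding strand of all 4, and stop before the first exon in GENCODE M21 (same build). *Hmgcs1* (chr13:119690101-119690350) is shown for its sterol regulatory element, *Srebf2* (chr15:82147019-82147180) for a shorter form of this element, *Insig1* (chr5:28071162-28071362) for its E-box, and *Lss* (chr10:76531355-76531587) for having only a CCAAT box and GC boxes. Capitals mark the sterol regulatory element (TCACNCCAC, or its first 8 letters), the NF-Y motif, called the CCAAT box, on either strand, and the palindromic E-box CACGTG. The SP1 motif GGGCGG was searched but is left in lower case.
Hmgcs1: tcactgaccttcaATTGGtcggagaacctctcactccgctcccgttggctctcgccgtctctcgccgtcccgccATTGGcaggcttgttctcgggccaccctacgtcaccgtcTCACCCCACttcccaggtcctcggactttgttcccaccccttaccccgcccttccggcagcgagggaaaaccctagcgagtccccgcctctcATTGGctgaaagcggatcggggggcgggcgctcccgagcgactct
Srebf2: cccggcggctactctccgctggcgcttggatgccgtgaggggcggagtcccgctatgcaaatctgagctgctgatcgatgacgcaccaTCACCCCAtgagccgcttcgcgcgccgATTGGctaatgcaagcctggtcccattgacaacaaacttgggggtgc
Insig1: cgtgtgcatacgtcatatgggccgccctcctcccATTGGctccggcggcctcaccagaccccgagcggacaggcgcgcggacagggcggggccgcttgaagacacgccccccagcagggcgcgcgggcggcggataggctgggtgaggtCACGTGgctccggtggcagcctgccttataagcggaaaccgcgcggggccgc
Lss: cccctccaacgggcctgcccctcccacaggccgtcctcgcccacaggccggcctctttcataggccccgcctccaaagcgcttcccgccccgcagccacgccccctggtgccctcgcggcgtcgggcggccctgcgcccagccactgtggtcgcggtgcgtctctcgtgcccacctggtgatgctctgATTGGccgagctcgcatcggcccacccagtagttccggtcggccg

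A CCAAT box was present in all 6 promoters, whereas 33.8% of all 32851 promoter windows of this length hold one. The GC box GGGCGG was likewise present in all 6, against 32.7% of windows. The full 9-letter element was found only in *Hmgcs1* among the 6, between 137 and 129 bases before the start, and is present in 1.05% of windows. Its first 8 letters also occurred in *Srebf2*, between 162 and 155 bases before the start (3.67% of windows). The E-box was found in *Insig1* alone, between 101 and 96 bases before the start (6.02% of windows). Among 13 other enzymes of the pathway with a promoter in the same tables, 12 had a CCAAT box, 11 a GC box, 3 an E-box and none the 9-letter element. These matches are letters in a window, and binding was not measured.

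To determine whether housing temperature altered cholesterol synthesis genes, counts at 22°C and 29°C were compared with edgeR's quasi-likelihood test. No difference was detected for any of the 8 genes. At P-adj below 0.1, 0 of 8 were called, against 1.94% of all 17779 genes tested. At an unadjusted p below 0.05 the count was also 0 of 8, against 18.5% of all genes, and DESeq2 called 0 of 8, against 10.2% of the 16388 genes to which it gave an adjusted p. Levels are given as CPM, that is counts scaled to a common library size after TMM normalization. Those of the 2 groups of mice overlapped for all 8 genes, and 1.24% of genes tested had groups that did not overlap. By log2 fold change (22°C over 29°C), 4 genes lay above 0 and 4 below, with a median of -0.002, whereas the median over all genes was 0.007.

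**Figure D1:**
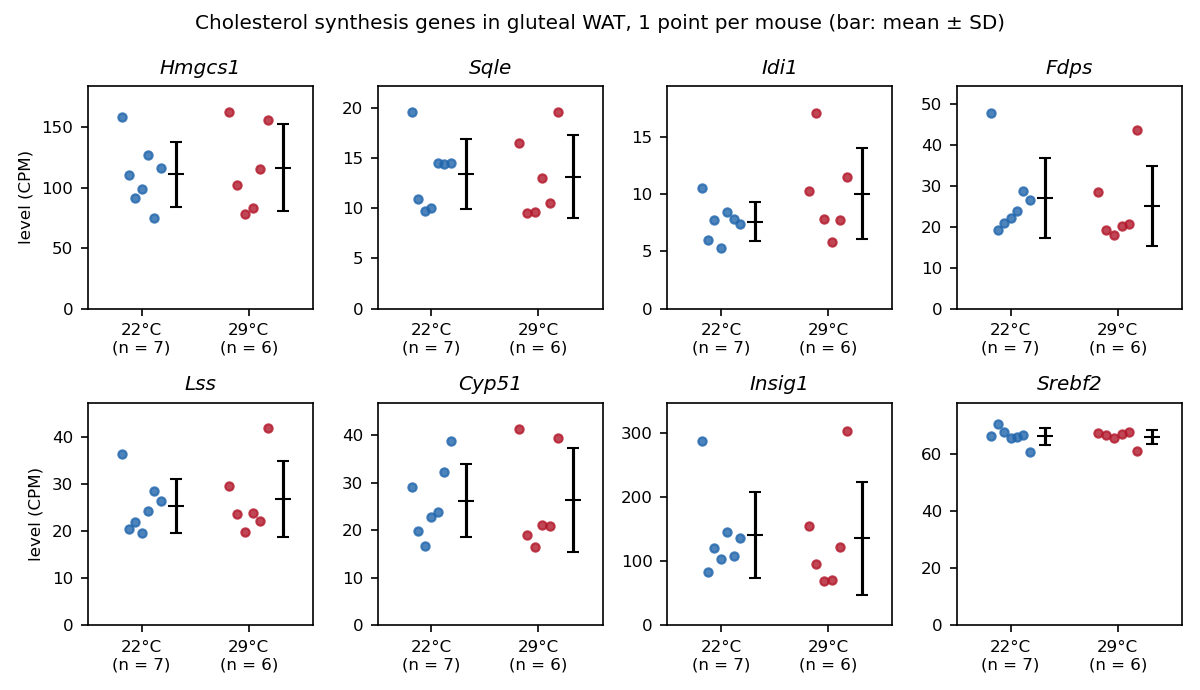
Level of each gene in CPM (linear axes from 0) in gluteal WAT at 22°C (blue, n = 7) and 29°C (red, n = 6); each point is 1 mouse and the bar gives the mean ± SD. The groups overlap for all 8 genes, and *Srebf2* has the narrowest spread, between 60.8 and 70.7 CPM over both groups.

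*Hmgcs1* encodes the cytosolic HMG-CoA synthase, which acts at the start of the mevalonate pathway. Its level was between 74.9 and 158 CPM in the 7 mice at 22°C, around a median of 110.2, and between 78.1 and 163 in the 6 mice at 29°C, around a median of 109. The highest mice of both groups thus lay at nearly the same level, and so did the lowest. Means were 111 ± 27.0 (SD, n = 7) and 116 ± 36.1 (SD, n = 6), with a log2 fold change of -0.07 (SE 0.20) and P-adj of 0.891 by edgeR. *Hmgcs1* shares 557 exon bases with *Gm48342* on the opposite strand. Because the strand setting of the counting is not given in the sources used here, reads in these shared bases cannot be told apart. Overlaps here and below are those of GENCODE M21, while the annotation release of the counts is not given.

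*Idi1* and *Fdps* act next, on the isoprenoid units: *Idi1* encodes isopentenyl-diphosphate isomerase and *Fdps* farnesyl diphosphate synthase. *Idi1* was between 5.29 and 10.5 CPM at 22°C, around a median of 7.70, and between 5.83 and 17.1 CPM at 29°C, around a median of 9.01. The mouse at 17.1 CPM (29°C replicate 2) was the only one above 11.5 CPM. Of the 8 genes, *Idi1* had the most negative log2 fold change, -0.40 (SE 0.23), with a 95% interval from -0.89 to 0.09 and P-adj of 0.367 by edgeR. Without 29°C replicate 2 the log2 fold change was -0.18.

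*Fdps* was between 19.1 and 47.75 CPM at 22°C, around a median of 23.9, and between 18.1 and 43.7 CPM at 29°C, around a median of 20.3. In each group 1 mouse stood well above the others, 22°C replicate 1 at 47.75 CPM and 29°C replicate 6 at 43.7 CPM, whereas no other mouse exceeded 28.74 CPM. The log2 fold change was 0.11 (SE 0.25), with P-adj of 0.848 by edgeR, and turned to -0.09 without 22°C replicate 1. *Fdps* shares 1124 exon bases on the same strand with the predicted gene *Gm43738*, so the share of reads given to each depends on the counting. *Idi1*, *Lss* and *Cyp51* share 323, 381 and 166 exon bases with genes on the opposite strand, whereas *Sqle*, *Insig1* and *Srebf2* share none with an annotated gene.

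*Sqle* encodes squalene epoxidase, an oxygen-requiring and often rate-limiting step. *Sqle* was between 9.70 and 19.6 CPM at 22°C, around a median of 14.4, and between 9.53 and 19.6 CPM at 29°C, around a median of 11.75. The 2 ranges were almost the same, and the log2 fold change was 0.03 (SE 0.21) with P-adj of 0.964 by edgeR.

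*Lss* encodes lanosterol synthase, which closes the sterol rings. *Lss* was between 19.6 and 36.3 CPM at 22°C, around a median of 24.1, and between 19.7 and 41.8 CPM at 29°C, around a median of 23.6, and the highest mice were the same 2 as for *Fdps*. The log2 fold change was -0.08 (SE 0.18) with P-adj of 0.848 by edgeR.

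*Cyp51* encodes the lanosterol demethylase, a cytochrome P450. *Cyp51* was between 16.7 and 38.75 CPM at 22°C, around a median of 23.7, and between 16.5 and 41.3 CPM at 29°C, around a median of 20.98. Its highest mice were 29°C replicates 1 and 6 and 22°C replicate 7. The log2 fold change of -0.01 (SE 0.25) had P-adj of 0.990 by edgeR, and among the 8 libraries with higher total counts, which hold 2 mice at 22°C, it was 0.42 (P-adj of 0.680).

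*Insig1* is a target of SREBP2 whose protein retains SCAP in the endoplasmic reticulum. It was between 83.5 and 287 CPM at 22°C, around a median of 121, and between 69.3 and 303 CPM at 29°C, around a median of 109. Means were 140.4 ± 67.7 (SD, n = 7) and 136 ± 88.1 (SD, n = 6). In both groups a single mouse was well above the rest: 22°C replicate 1 had 287 CPM, next to 145 CPM in the second highest, and 29°C replicate 6 had 303 CPM, next to 154 CPM. The log2 fold change was 0.05 (SE 0.37) with P-adj of 0.962 by edgeR. Its size moved with single mice: omitting 22°C replicate 1 turned it to -0.23, omitting 29°C replicate 6 raised it to 0.46, and omitting 29°C replicates 2, 3 or 4 gave values between -0.086 and -0.035.

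*Srebf2*, the gene of the regulator, was between 60.8 and 70.7 CPM at 22°C, around a median of 66.7, and between 61.1 and 68.1 CPM at 29°C, around a median of 67.1. Means were 66.4 ± 2.95 (SD, n = 7) and 66.1 ± 2.55 (SD, n = 6), and the log2 fold change was 0.01 (SE 0.05) with P-adj of 0.953 by edgeR. The level therefore varied far less among mice than that of the other 7 genes.

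The 95% intervals give the sizes of difference that these data leave possible. For *Srebf2* the 95% interval of the fold (22°C over 29°C) ran from 0.939 to 1.08. For *Hmgcs1*, *Sqle*, *Fdps*, *Lss* and *Cyp51* the lower bounds were between 0.680 and 0.746 and the upper bounds between 1.24 and 1.56. *Idi1* had an interval from 0.539 to 1.06, and *Insig1* from 0.599 to 1.79.

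**Figure D2:**
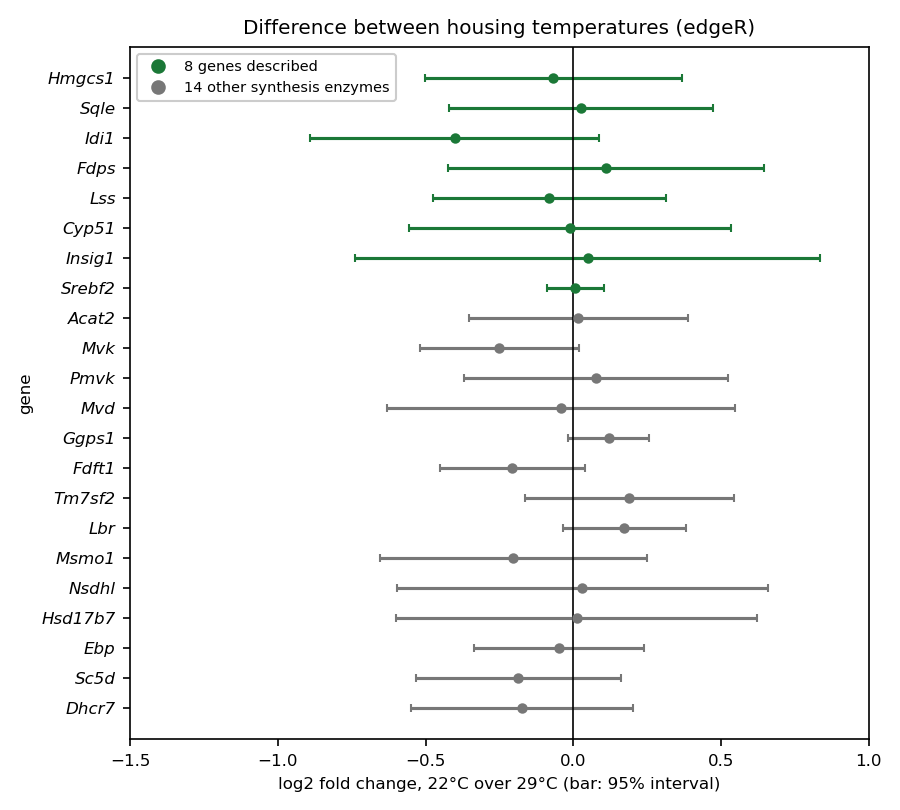
Log2 fold change of 22°C over 29°C by edgeR (point) with its 95% interval (bar) for the 8 genes described (green) and 14 other enzymes of cholesterol synthesis (grey). All 22 intervals include 0, and that of *Srebf2* is the narrowest.

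Levels were set in order per length, as CPM per kilobase of annotated exon (exon union in GENCODE M21), taking the median of the 13 mice. *Insig1* was the most abundant, at 39.1 CPM per kilobase (range 22.4 to 98.0), followed by *Hmgcs1* at 24.0 (16.3 to 35.5) and *Srebf2* at 9.31 (8.47 to 9.84). *Insig1* exceeded *Hmgcs1* in 13 of 13 mice, *Hmgcs1* exceeded *Srebf2* in 13 of 13, and *Srebf2* exceeded *Fdps* in 11 of 13. *Fdps* and *Cyp51* were neighbours at 5.26 and 5.15 CPM per kilobase, with *Fdps* higher in 10 of 13 mice, and both ranges overlapped widely. *Sqle* (2.34), *Idi1* (2.22) and *Lss* (2.20) were lowest and their ranges overlapped, with *Sqle* above *Idi1* in 9 of 13 mice and *Idi1* above *Lss* in 6 of 13. The annotated exon length of *Lss*, 10787 bases, was the longest of the 8 and lowers its place on this scale.

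Mice of the same temperature differed more in these genes than in most. The SD of log2 CPM within groups had a median of 0.414 over the 8 genes and of 0.241 over all genes tested. *Insig1* had the largest, 0.686, at percentile 91.6 of all genes, and *Cyp51* (0.489), *Fdps* (0.461), *Idi1* (0.432), *Hmgcs1* (0.396), *Sqle* (0.396) and *Lss* (0.346) followed. For *Srebf2* the SD was 0.061, at percentile 0.405, so that nearly all genes varied more than it did. The ratio of the highest to the lowest mouse at 29°C was 4.37 for *Insig1*, between 2.06 and 2.93 for the 6 enzymes, and 1.11 for *Srebf2*.

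The 7 targets (all of the 8 genes but *Srebf2*) were high in the same mice. In 22°C replicate 1, 29°C replicate 1 and 29°C replicate 6, all 7 lay above the mean of their group, with a median deviation on the log2 scale of 0.548, 0.384 and 0.675. In 22°C replicate 4 and 29°C replicate 3, all 7 lay below it, with median deviations of -0.33 and -0.395. In the other mice between 1 and 6 of the 7 were above the group mean. *Idi1* in 29°C replicate 2 was the largest exception, at 0.85 above its group mean where the other 6 targets were below theirs. The mean log2 CPM over all 8 genes was 5.06 ± 0.29 (SD, n = 7; range 4.79 to 5.61) at 22°C and 5.07 ± 0.39 (SD, n = 6; range 4.66 to 5.68) at 29°C.

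**Figure D3:**
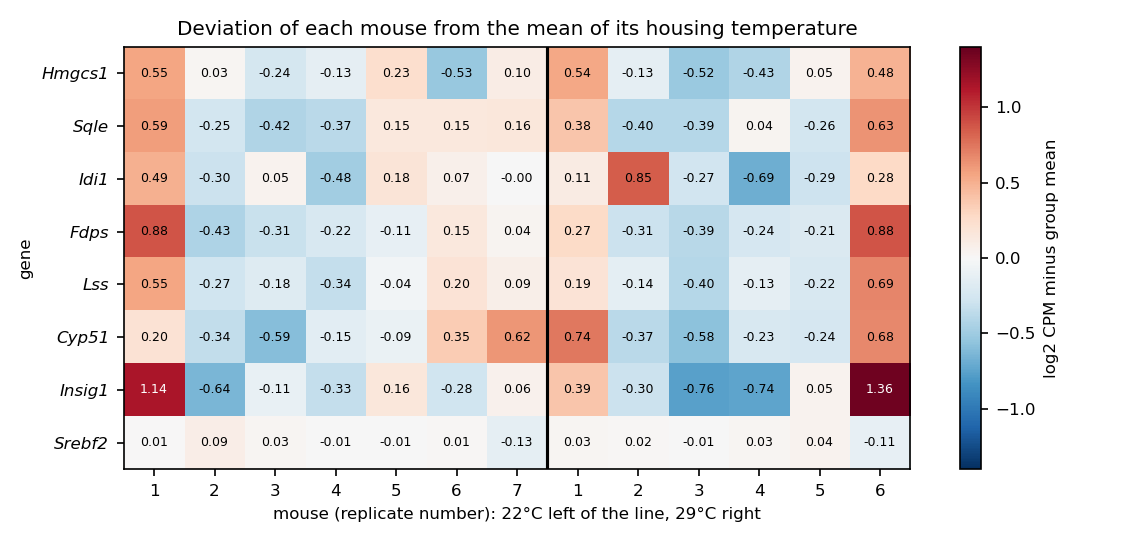
Log2 CPM of each gene in each mouse minus the mean of its temperature group (red above, blue below; numbers are the deviations), with the 7 mice at 22°C left of the line and the 6 at 29°C right of it. Columns of 22°C replicate 1 and of 29°C replicates 1 and 6 are red for all 7 targets, while the row of *Srebf2* stays between -0.13 and 0.09.

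As a description of this covariation, Pearson's r was taken between genes over the deviations of the 13 mice from their group means, which share library, depth and RNA source. Because some same-numbered mice were alike, the 13 mice may not be independent points. All 21 pairs of the 7 targets were positive, with a median r of 0.686 (range 0.254 to 0.967) and a median Spearman's rho of 0.709 (0.297 to 0.901). Within 22°C the median r was 0.735 (n = 7) and within 29°C 0.846 (n = 6), and all 21 pairs were positive in each. The closest pair was *Fdps* and *Lss* (r = 0.967, rho = 0.874), and *Sqle* and *Lss* followed (r = 0.927, rho = 0.830). *Idi1* was the least alike, and its r with *Cyp51* was 0.254. The 2 mice farthest from the median of the mean over the 8 genes, 22°C replicate 1 and 29°C replicate 6, were then left out. All 21 pairs stayed positive, and the median r was 0.516 (range 0.036 to 0.933). Leaving out the extremes of the shared mean tends to lower r by itself, so the drop does not set those mice apart. *Srebf2* had negative r to the 7 targets, between -0.582 and -0.208 (median -0.478), with a median of -0.286 without the same 2 mice. Its rho was weaker, between -0.462 and -0.192 (median -0.313). Its within-group SD was only 0.061 on the log2 scale, and counting error was not separated from this spread.

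Out of the 17778 other genes tested, *Lss* was the gene most alike to *Sqle*, and *Fdps* the gene most alike to *Lss*. For *Fdps*, *Lss* ranked in place 2 after *Gm43738* (r = 0.988), and for *Hmgcs1* the first place went to *Gm48342* (r = 0.974), both of which overlap the gene itself as given above. *Cyp51* was most alike to *Mvd* (r = 0.952), the mevalonate diphosphate decarboxylase of the same pathway, and *Insig1* to *Sod2* (r = 0.947), the mitochondrial superoxide dismutase, with *Fdps* in place 4 (r = 0.916). *Idi1* was most alike to *Pnpla5* (r = 0.903), a lipase of the patatin family, and its best match among the 8 genes, *Insig1*, came in place 534. *Srebf2* was most alike to *Cep57* (r = 0.904), a centrosomal protein gene.

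With the mean standardized deviation of the 8 genes, the 10 other genes of highest r were *Tank*, *Gm20498*, *Cox16*, *Uqcrq*, *Chac2*, *Cript*, *Gm43738*, *Cox7c*, *Ndufa7* and *Nudt2*, with r between 0.907 and 0.950. *Uqcrq*, *Cox7c* and *Ndufa7* encode small subunits of the respiratory chain, and *Cox16* an assembly factor of cytochrome oxidase. None of the 10 was called between temperatures by edgeR. Their median exon length was 1829.5 bases, against 3728 bases over the genes tested, and the 10 genes most opposite in sign had a median of 5230 bases. In each library, log2 CPM minus the mean of the gene over all mice was correlated with exon length over genes (Spearman). This correlation, called the length slope here, moved with the mean of the 8 genes at r = -0.32 (rho = -0.407). With the length slope removed, the median r of the 21 pairs of targets was 0.70, and all stayed positive.

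For the 14 other enzymes of cholesterol synthesis examined, no difference between temperatures was detected either. edgeR called 0 of 14 at P-adj below 0.1, against 1.94% of all genes tested, and 0 at an unadjusted p below 0.05, against 18.5%. DESeq2 called 0, against 10.2% of genes. By log2 fold change 7 lay above 0 and 7 below, with a median of -0.02, from -0.25 for *Mvk*, the mevalonate kinase (P-adj of 0.307), to 0.19 for *Tm7sf2*, a sterol reductase (P-adj of 0.576). The most abundant were *Sc5d*, the lathosterol oxidase, with 114.5 ± 19.1 CPM (SD, n = 7) at 22°C against 130.4 ± 35.1 (SD, n = 6), *Fdft1*, the squalene synthase, with 85.6 ± 13.0 and 98.8 ± 13.3, and *Acat2*, the cytosolic thiolase, with 50.7 ± 11.8 and 50.1 ± 11.1. Their P-adj values by edgeR were 0.572, 0.353 and 0.972.

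Many of these enzymes varied with the 8 genes among mice. Of the 14, 12 had a positive r with the mean of the 8 genes and 9 (64.3%) an r over 0.5, with a median of 0.664. Over all genes tested, 47.5% were positive, 10.7% were over 0.5 and the median was -0.029. The values were 0.835 for *Sc5d*, 0.662 for *Mvk* and 0.616 for *Tm7sf2*, but 0.312 for *Acat2* and 0.069 for *Fdft1*. *Nsdhl* (0.816), *Dhcr7* (0.795) and *Hsd17b7* (0.777), 3 enzymes of the later sterol steps, were picked out after their values were seen. The lowest r was that of *Lbr* (-0.313), a sterol reductase that is also a protein of the nuclear envelope.

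**Figure D4:**
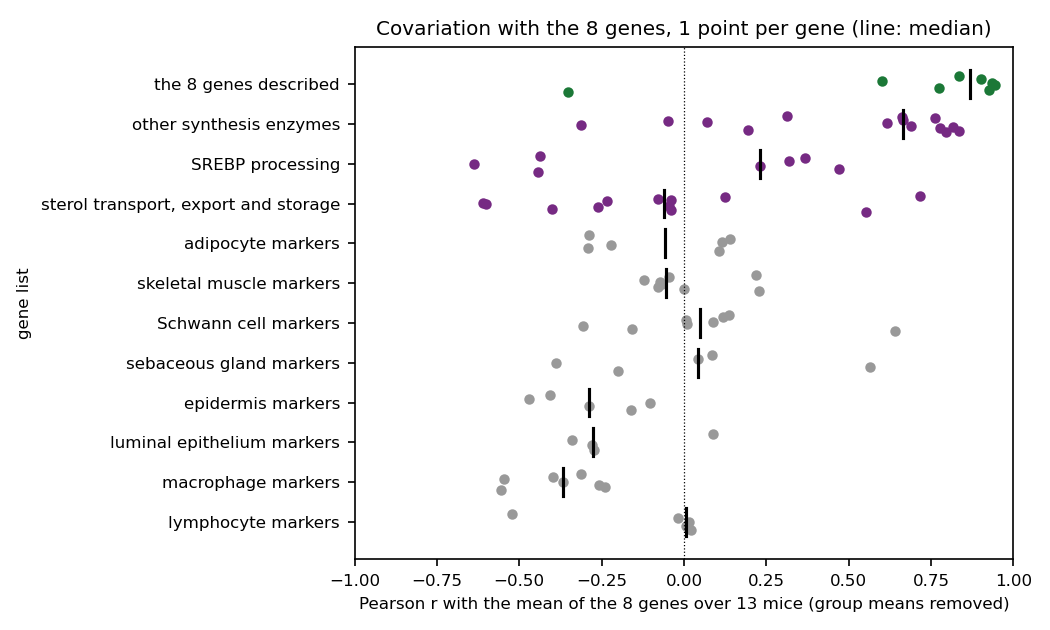
Pearson's r of each gene with the mean standardized deviation of the 8 genes over 13 mice, with group means removed; each point is 1 gene, each line of points a list, and the vertical bar its median. The median is 0.664 for the other synthesis enzymes, 0.232 for SREBP processing and between -0.367 and 0.049 for the 8 marker lists; each of the 8 genes described is itself part of the mean.

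Among 7 genes that act in the processing of SREBPs, 5 had a log2 fold change above 0, against 51.6% of all genes tested. edgeR called 1 of the 7, against 1.94% of all genes tested, and DESeq2 also called 1, against 10.2% of genes. *Rnf139*, which encodes a sterol-sensitive ubiquitin ligase of the endoplasmic reticulum, was higher at 22°C, with 37.3 ± 4.46 CPM (SD, n = 7) against 29.2 ± 2.44 (SD, n = 6). The lowest mouse at 22°C and the highest at 29°C were both at 32.3 CPM. In unrounded values the groups did not overlap, as was so for 1.24% of genes tested. The log2 fold change was 0.35 (SE 0.08), with P-adj of 0.0854 by edgeR and 0.00992 by DESeq2. Leaving out each mouse in turn kept the log2 fold change between 0.31 and 0.38, but gave edgeR P-adj between 0.0601 and 0.186, below 0.1 in 3 of 13 cases, and the highest came without 29°C replicate 3. With the mean log2 CPM of skeletal muscle markers in each mouse as a covariate P-adj was 0.247, with a covariate for the clusters of library totals 0.321, and with the replicate number as a block 0.121. *Rnf139* shares 1140 exon bases with *Tatdn1* on the opposite strand (r = 0.894 between them), and reads in these shared bases cannot be told apart. It also shares 197 exon bases on the same strand with the predicted gene *Gm49356* (mean 95.6 CPM, r = 0.513), so the share of reads given to each depends on the counting. *Srebf1*, the gene of the fatty acid regulator SREBP1, was the most abundant, at 669.7 ± 136 CPM (SD, n = 7) and 663.7 ± 86.2 (SD, n = 6), with a log2 fold change of 0.01 (P-adj of 0.974 by edgeR). *Mbtps1*, which encodes the first of the SREBP proteases, had the lowest log2 fold change of the list, -0.08 (P-adj of 0.547 by edgeR). *Rnf145*, the gene of another ubiquitin ligase of that membrane, was at 66.1 ± 6.85 CPM (SD, n = 7) and 66.2 ± 3.56 (SD, n = 6), with P-adj of 0.991 by edgeR. None of these 7 had an r over 0.5 with the mean of the 8 cholesterol genes. Their r ran from -0.636 (*Mbtps1*) to 0.47 (*Rnf139*).

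In the list of 12 genes for sterol transport, export and storage, 3 had a log2 fold change above 0, against 51.6% of all genes tested. Here too edgeR called 1, against 1.94% of all genes tested, and DESeq2 called 1, against 10.2% of genes. *Npc1*, which encodes the lysosomal cholesterol exporter, was higher at 22°C, with 62.65 ± 5.90 CPM (SD, n = 7) against 50.2 ± 5.13 (SD, n = 6). Its log2 fold change was 0.32 (SE 0.08), and P-adj was 0.0873 by edgeR and 0.0100 by DESeq2. The groups overlapped through 29°C replicate 4, at 60.3 CPM, while the other mice at 29°C were at or below 50.9 CPM. With each mouse left out in turn the log2 fold change stayed between 0.29 and 0.38, while edgeR P-adj ran from 0.060 to 0.195, below 0.1 in 3 of 13 cases and highest without 29°C replicate 3. P-adj was 0.263 with the muscle covariate and 0.327 with that for library totals. *Npc1* shares 511 exon bases with *Rmc1* on the opposite strand. *Npc2*, which encodes its soluble partner in the lysosome, lay in the other direction at -0.24 (P-adj of 0.244 by edgeR). *Abca1* (-0.06) and *Scarb1* (-0.23), encoding a cholesterol efflux pump and the receptor of high-density lipoprotein, had P-adj of 0.736 and 0.455 by edgeR. *Ch25h*, a sterol hydroxylase gene, was the lowest of the list at -0.45 (P-adj of 0.516 by edgeR) and reached at most 1.113 CPM in any mouse. In the r with the 8 genes, 2 of the 12 were over 0.5, *Stard4* (0.717), a sterol carrier gene, and *Scarb1* (0.552). The opposite sign was seen for *Abcg1* (-0.61), a cholesterol export pump, and *Nr1h2* (-0.60), an oxysterol receptor. *Stard4*, *Abcg1* and *Nr1h2* were singled out after their values were seen.

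Total counts were between 22356637 and 25245785 per library. The 5 libraries with lower totals all came from 22°C (replicates 1 to 5), so that the total count and the temperature cannot be fully told apart. A count of 0 would allow up to 3 counts, or between 0.119 and 0.134 CPM, which is for counting error only, and the lowest count of any of the 8 genes in any mouse was 126 (*Idi1*). Adipocyte markers were abundant in every mouse, with a summed level of 6 genes between 10960 and 17250 CPM. Skeletal muscle markers differed widely, and the sum of 8 genes reached 71620 CPM at 22°C (lowest 570.2) but no more than 5390 CPM at 29°C (lowest 108.8). The 2 mice with the highest cholesterol genes lay far apart in this, at 48790 CPM (22°C replicate 1) and 108.8 CPM (29°C replicate 6). For r with the mean of the 8 genes, the mean log2 CPM of each marker list was used, with group means removed. Over the 8 lists r was between -0.389 (7 macrophage markers, summed level 398.4 to 896.1 CPM) and 0.086 (8 Schwann cell markers, summed level 365.9 to 653.3 CPM). Without 22°C replicate 1 and 29°C replicate 6 these 2 values were 0.034 and 0.514. The lists of sebaceous gland (32.1 to 46.5 CPM), epidermis (12.6 to 368.9), luminal epithelium (1.45 to 42.8) and lymphocyte markers (1.81 to 25.2), 7 genes each, were lower, and no marker was at 0 in all libraries. What sets the differences between mice of 1 temperature was not tested.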

How the data were processed

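RNA of gluteal WAT from 13 mice was analysed, with temperature and replicate number taken from the labels. Per the labels and the study's methods, the authors aligned reads with STAR 2.7.5a (GRCm39 in the submitters' processing notes), made counts of reads per gene with featureCounts and deposited these raw counts without normalization. They also deposited regularized log2 values made with DESeq2, which were used in 1 alternative here. The annotation release and the strand setting are not given in the sources used here.

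Counts of 17779 genes that passed filterByExpr were fitted with edgeR 4.0.16 (TMM, quasi-likelihood F test, two-sided, no covariate, Benjamini-Hochberg over all genes, called at P-adj below 0.1, R 4.3.3). The SE was taken from the absolute log2 fold change and the root of its F statistic. The log2 CPM values use a prior count of 2. Nothing in the labels says more of the mice than their numbers, and each was counted as 1 replicate. No 2 libraries came closer than a chi-square of 15.55 per gene (78 pairs), so none looked like a copy of another. This value cannot show whether mice shared a litter or were processed together. Correlations are over deviations from group means and carry no p.

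Gene lists cover 14 other synthesis enzymes, SREBP processing, sterol transport, export and storage, and 8 marker lists (adipocyte, skeletal muscle, Schwann cell, sebaceous gland, epidermis, luminal epithelium, macrophage, lymphocyte). Some genes of the pathway are not reported here. The members and lists were chosen with earlier results of these data known. The genes named are the 8 members and, of each other sterol list, every gene called, the 3 most abundant and the highest and lowest log2 fold change, and the 10 genes most alike to their mean. *Mvd*, *Sod2*, *Pnpla5*, *Cep57*, *Gm48342*, *Lbr*, *Nsdhl*, *Dhcr7*, *Hsd17b7*, *Stard4*, *Abcg1*, *Nr1h2*, *Scap*, *Tmem97*, *Mylip* and the overlapping genes fall outside this rule. Symbols were matched by gene identifier (34006 of 34419). Alternatives were DESeq2 1.42.0, its size factors, no filter, a mean of at least 10 counts, a robust fit, a replicate block, the grouping of libraries by total count as a covariate, the libraries with higher totals alone, a muscle covariate, limma 3.58.1 on the deposited log2 values, P-adj below 0.05, leaving out each mouse, and, added after the data were seen, the length slope as a covariate.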

Additional observations from a re-analysis of the deposited data

Results flagged for a closer look

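In 12 of 82 groups of mice examined over the named sterol genes, 1 mouse lay far from the others of its group by Dixon's criterion at its 95% level, which chance alone does in about 1 in 20 groups. Of the 8 genes described, 4 of 16 groups were so marked. *Fdps* at 22°C had 47.75 CPM in replicate 1, with 28.7 CPM in the next mouse. *Insig1* had 286.6 CPM in 22°C replicate 1 (145.3 in the next) and 303.1 CPM in 29°C replicate 6 (154.0 in the next). *Srebf2* had its lowest value of 29°C, 61.14 CPM, in the same replicate 6, and the next was 65.7 CPM.

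Among the other sterol genes, *Mvk* was low in 22°C replicate 4 (21.31 CPM, next 27.2) and high in 29°C replicate 6 (46.44 CPM, next 31.1). In that same mouse *Tm7sf2* was at 17.73 CPM (next 10.8) and *Scarb1* at 281.8 CPM (next 193.5). *Scap* was at 44.29 CPM in 29°C replicate 1 (next 56.95), *Tmem97* at 14.33 CPM in 22°C replicate 6 (next 10.5), *Npc1* at 60.29 CPM in 29°C replicate 4 (next 50.9) and *Mylip* at 31.54 CPM in 22°C replicate 3 (next 44.98). What sets 29°C replicate 6 and 22°C replicate 1 apart from their groups was not tested.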

How the results depend on the processing

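None of the 8 genes and none of the 14 other synthesis enzymes was called under any of the 25 alternatives run, 13 of which left out 1 mouse. Some alternatives called few genes at all, 4 with the cluster covariate and 8 in the libraries with higher totals, so 0 there says little. P-adj below 0.05 was a stricter cut of the main fit, so its 0 was fixed by the main result. The median log2 fold change of the 8 genes was between -0.131 and 0.115 when 1 mouse was left out, and that of the other enzymes between -0.101 and 0.086. Over 200 values of the 8 genes under the alternatives, 169 kept their sign and 31 did not (21 of these with a mouse left out). The 169 include those of the stricter cut, which repeat the main fit and could not change sign. The lowest P-adj was 0.2705, for *Idi1*, the only one of the 8 that never changed sign. With the libraries of higher totals alone and with a covariate for the 2 clusters of library totals, the log2 fold change turned to 0.023 and 0.032 for *Lss*, 0.421 and 0.429 for *Cyp51*, -0.168 and -0.16 for *Insig1*, and -0.058 and -0.049 for *Srebf2*. It was 0.022 for *Cyp51* by limma on the authors' log2 values and -0.002 for *Srebf2* with the muscle covariate. Leaving out 1 mouse gave -0.173 to 0.053 for *Hmgcs1*, -0.089 to 0.176 for *Sqle*, -0.518 to -0.183 for *Idi1*, -0.087 to 0.343 for *Fdps*, -0.188 to 0.091 for *Lss*, -0.132 to 0.162 for *Cyp51*, -0.226 to 0.457 for *Insig1* and -0.014 to 0.027 for *Srebf2*. The cause of these changes of sign was not tested.

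The number of all genes called, 345, was 1676 with DESeq2, 580 with the length slope as a covariate (an alternative chosen after seeing the data), 42 with no filter on low counts, 44 with the muscle covariate, 40 at P-adj below 0.05, 8 in the libraries with higher totals and 4 with the cluster covariate, and from 32 (without 29°C replicate 3) to 652 (without 22°C replicate 6) with 1 mouse left out. With the replicate number as a block it was 214. Same-numbered mice correlated at r between 0.051 and 0.513 in 6 pairs, 5 of them over 0.1. Of the 22°C mice in these pairs, 4 were closest to their own number, so some same-numbered mice were alike. The labels do not say that the numbers pair mice, and the main fit did not pair them. What same-numbered mice share was not tested. The block left *Rnf139* at P-adj 0.121. *Rnf139* and *Npc1* also lost their calls with no filter (0.169 and 0.174), with the cluster covariate (0.321 and 0.327) and in the libraries with higher totals (0.336 and 0.393), while both stayed higher at 22°C.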
